A study of Mus musculus with 6 samples.

Results

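Polycomb repressor genes were examined in 3 clones of immortalised mouse B cells. The 9 members were taken by gene name (Ezh2, Ezh1, Eed, Suz12, Jarid2, Rnf2, Ring1, Bmi1 and Cbx7), out of 37315 genes in the abundance table and 19402 in the allele table. All 9 were found in both tables, and all 9 passed both the filter on low abundance and the filter on allelic coverage. The lines are Abl.2 and Abl.4, labelled female, and Abl.3, labelled male, and the file headers call them Abelson clones. All come from 129S1/SvImJ x CAST/EiJ F1 mice, so the alleles inherited from the mother and from the father can be counted apart at SNPs. Every library is a control with 1% DMSO in the growth medium, from live cells collected on day 2 over a density gradient, and no treated cells are compared here. Each line is 1 clone with 2 library preparation replicates, so the tests measure the spread between library preparations and a difference between lines is a difference between those clones. Age was not given in the sources used here.

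Polycomb proteins keep genes silent through marks on histones and work in a pair of complexes. PRC2 places methyl groups on lysine 27 of histone H3: EZH2 or its paralog EZH1 is the enzyme, EED and SUZ12 are core subunits that the enzyme needs, and JARID2 is an accessory subunit that helps to guide the complex. PRC1 attaches ubiquitin to histone H2A through RNF2 (RING1B) or its paralog RING1, BMI1 is a partner of these ligases, and CBX7 is a chromodomain subunit that reads the PRC2 mark. In B cells, EZH2 is known for its high level in dividing precursors and germinal centre cells. BMI1 is known for supporting self-renewal and holding down the Cdkn2a locus.

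The cell type was checked first. The B-lineage markers Cd79a, Cd79b, Pax5, Ebf1, Vpreb1, Igll1 and Blnk were each above 1 TPM in every library (TPM is an abundance that corrects counts for the length of the gene and the size of the library). The summed T cell, erythroid and fibroblast markers stayed at or below 0.97 TPM in each library. Of the 4 myeloid markers, Lyz2 was at 70.8 to 192.8 TPM with its highest values in Abl.2, Csf1r and Mpo were below 1 TPM and Itgam reached 6.89 TPM in Abl.4. Among the B-lineage markers, Pax5, a transcription factor that maintains B cell identity, was at 56.2 and 64.0 TPM in Abl.3 against 155.9 to 246.1 TPM in the other clones. Blnk, Cd79b, Ebf1 and Cd79a were also lowest in Abl.3, with Blnk at 324.4 and 295.5 TPM against 426.6 to 623.0 TPM. Pax5, Blnk, Cd79b and Ebf1 passed against both other clones (limma, adjusted p under 0.05), and Cd79a against Abl.2 only. Igll1, a surrogate light chain gene, was instead highest in Abl.3, at 4508.5 and 5026.8 TPM against 3730.6 to 4125.0 TPM. Vpreb1 was at similar levels in Abl.2 and Abl.3. Whether these marker levels bear on the members was not tested. Allelic counts ranged from 18362319 to 26881211 per library.

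The upstream sequence of 3 members is shown because these genes were lower in Abl.3 than in Abl.4 and their RefSeq start equals the start of the annotated gene. The windows are the 250 bases before the start on the strand of the gene, from RefSeq on GRCm38.p6, with every CG dinucleotide, the site of DNA methylation in mammals, in capitals. They lie at chr11:79992856-79993105 (plus strand, Suz12), chr11:101226464-101226713 (minus strand, Ezh1) and chr2:18676768-18677017 (plus strand, Bmi1).
Suz12: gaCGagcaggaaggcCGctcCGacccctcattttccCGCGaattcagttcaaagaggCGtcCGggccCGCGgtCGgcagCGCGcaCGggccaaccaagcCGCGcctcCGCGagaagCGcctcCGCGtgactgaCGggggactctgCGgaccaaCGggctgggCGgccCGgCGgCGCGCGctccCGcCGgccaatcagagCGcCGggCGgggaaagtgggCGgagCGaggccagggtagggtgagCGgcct
Ezh1: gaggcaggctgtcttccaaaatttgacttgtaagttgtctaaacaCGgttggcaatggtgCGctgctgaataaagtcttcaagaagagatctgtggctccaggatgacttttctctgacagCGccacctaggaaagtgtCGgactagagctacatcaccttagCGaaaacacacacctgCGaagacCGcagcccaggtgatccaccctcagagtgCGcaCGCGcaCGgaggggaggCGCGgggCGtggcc
Bmi1: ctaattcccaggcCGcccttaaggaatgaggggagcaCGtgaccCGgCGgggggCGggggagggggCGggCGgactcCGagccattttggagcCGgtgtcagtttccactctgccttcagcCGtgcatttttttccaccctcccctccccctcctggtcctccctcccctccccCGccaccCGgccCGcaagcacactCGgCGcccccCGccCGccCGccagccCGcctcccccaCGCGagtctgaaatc
These windows hold 37, 14 and 21 CG dinucleotides in the same order. Over 300 bases, from 250 before to 50 after the start, RefSeq windows matched all 9 members, with 2 windows for Jarid2. The RefSeq start of the Cbx7 window lies 38473 bases from the gene start in the GENCODE annotation, those of Jarid2 1300 and 1797 bases and that of Ezh2 311 bases, so these windows are not at the annotated gene starts. The member windows hold from 17 CG in Eed to 41 in Suz12, against a median of 7.0 over 32851 windows. Of all windows, 3.5% hold at least as many as Suz12, and 31.4% at least as many as Eed. An E2F motif (TTTCCCGC or TTTGGCGC, on either strand) was found once in Suz12, 219 bases before the start, and once in Ezh2, just after it, and 1.56% of all windows hold one. The E-box CACGTG, a palindrome, was found once in Bmi1, 215 bases before the start, and in 7.15% of all windows. The files hold no methylation or binding data for these windows.

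The first question was how abundant each member was in each clone. Ezh2 (chromosome 6, 47530139 to 47595341) was by far the most abundant member. Its libraries held 163.4 and 177.5 TPM in Abl.2, 215.8 and 216.6 TPM in Abl.3, and 171.9 and 199.3 TPM in Abl.4. Abl.3 was above every library of the other lines, while the libraries of Abl.2 and Abl.4 overlapped. This level placed Ezh2 between the 88.7 and 91.6 percentiles of the 11003 genes that averaged 1 TPM or more.

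Its paralog Ezh1 (chromosome 11, 101191115 to 101226463) ran the other way. It was at 28.7 and 27.7 TPM in Abl.2, 15.9 and 14.1 TPM in Abl.3, and 27.3 and 25.6 TPM in Abl.4. The Abl.3 libraries lay well below all others. The ratio of Ezh2 to Ezh1 TPM was therefore 14.4 ± 1.27 (SD, n = 2) in Abl.3, against 6.04 ± 0.51 in Abl.2 and 7.04 ± 1.04 in Abl.4. The ratio is given as a description, with no test. In all 3 clones EZH2 transcripts thus outnumbered EZH1 transcripts, most in Abl.3.

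The other core subunits of PRC2 differed from each other in their spread. Eed (chromosome 7, 89954654 to 89980983) was at 46.8 and 49.9 TPM in Abl.2, 51.1 and 53.5 TPM in Abl.3, and 39.1 and 48.7 TPM in Abl.4. Its whole range was narrow. Suz12 (chromosome 11, 79993106 to 80034123) was at 37.4 and 47.6 TPM in Abl.2, 29.0 and 52.3 TPM in Abl.3, and 70.6 and 77.7 TPM in Abl.4. Suz12 was highest in Abl.4, and the Abl.3 replicates spanned both libraries of Abl.2. Its allelic CPM (counts of both alleles, scaled to the allelic total of the library) was close in the Abl.3 replicates, at 13.5 and 13.9. It was also highest in Abl.4, at 18.7 and 24.6, with 12.6 and 10.2 in Abl.2. Jarid2 (chromosome 13, 44729474 to 44921643) was at 28.5 and 26.4 TPM in Abl.2, 12.97 and 11.98 TPM in Abl.3, and 27.0 and 27.2 TPM in Abl.4. The accessory subunit was thus low in Abl.3 alone, with close replicates in every line.

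Among PRC1 members the ligases had narrow ranges and the other subunits wide ones. Rnf2 (chromosome 1, 151458004 to 151500955) ranged from 17.6 to 22.5 TPM over the 6 libraries, and Ring1 (chromosome 17, 34020792 to 34024680) from 13.3 to 17.3 TPM. In Abl.2 the ratio of Rnf2 to Ring1 TPM was 1.21 ± 0.12 (SD, n = 2), with 1.23 ± 0.17 for Abl.3 and 1.33 ± 0.088 for Abl.4, a difference no larger than the SD of Abl.3. Bmi1 (chromosome 2, 18677018 to 18686629) was at 33.6 and 34.1 TPM in Abl.2, 14.5 and 19.8 TPM in Abl.3, and 38.7 and 60.2 TPM in Abl.4. On the log2(TPM + 1) scale Bmi1 had the widest range of line means of all members, 1.46, with Abl.3 lowest and the Abl.4 replicates far apart. Cbx7 (chromosome 15, 79915807 to 79971119) was the least abundant member, at 3.22 and 3.24 TPM in Abl.2, 1.83 and 1.5 TPM in Abl.3, and 3.84 and 3.75 TPM in Abl.4. Its lines did not overlap, and Abl.3 was again lowest.

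**Figure D1:**
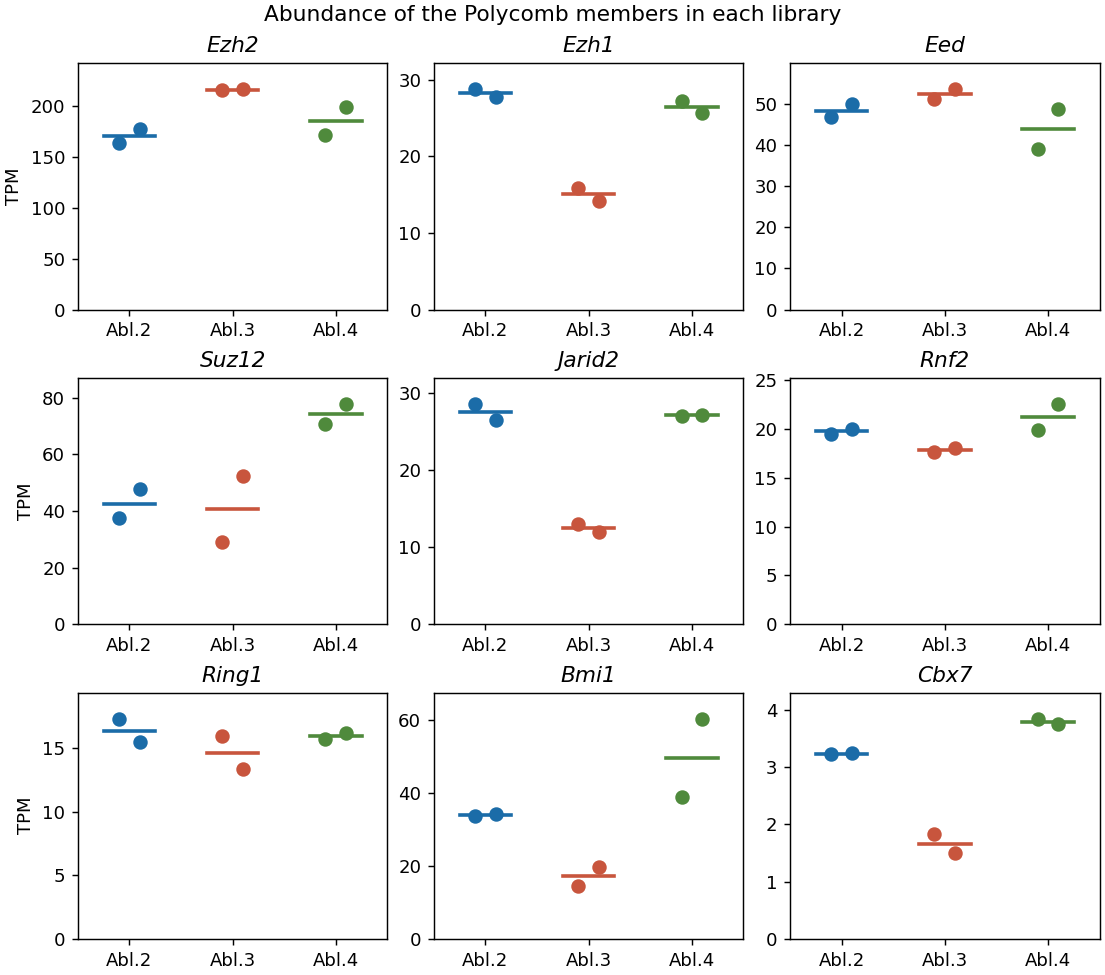
Abundance in TPM (vertical axes, each from 0) of the 9 Polycomb members in the 3 lines. Points are the 2 libraries of a line and bars their mean; Ezh1, Jarid2, Bmi1 and Cbx7 sit lowest in Abl.3, and Ezh2 sits highest there.

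By mean TPM over the 6 libraries the order was Ezh2 (190.7), Suz12 (52.4), Eed (48.2), Bmi1 (33.5), Ezh1 (23.2), Jarid2 (22.3), Rnf2 (19.6), Ring1 (15.6) and Cbx7 (2.90). Only the ends of this order were apart from every other member in every library. The lowest Ezh2 value exceeded the highest of any other member, and the highest Cbx7 value was below the lowest of any other member. Among the other neighbours, Rnf2 and Ring1 also had separate ranges, while the ranges of Suz12 and Eed, Eed and Bmi1, Bmi1 and Ezh1, Ezh1 and Jarid2, and Jarid2 and Rnf2 overlapped.

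The next comparison asked whether the clones differed in abundance, between Abl.2 and Abl.3. Ezh1, Jarid2, Bmi1 and Cbx7 were higher in Abl.2, by 1.83, 2.11, 1.94 and 1.59 times on the log2(TPM + 1) scale, and Ezh2 was lower there. This was 4 members higher and 1 lower, with 4 that did not pass the test. Over all 11003 genes, 39.8% passed, 25.9% of genes higher in Abl.2 and 14.0% lower. Of the calls over all genes 65.0% were higher in Abl.2, but 40.2% with the median of all genes set equal in every library. The libraries of the 2 lines did not overlap for 7 of 9 members and for 73.4% of all genes. Bulk libraries cannot tell a smaller number of expressing cells from less RNA per cell. In the limma fit on log2(TPM + 1), with p adjusted after Benjamini and Hochberg over all genes tested, the difference was 1.08 (SE 0.098, adjusted p = 0.000406) for Jarid2 and 0.87 (SE 0.10, adjusted p = 0.00113) for Ezh1. It was 0.96 (SE 0.23, adjusted p = 0.0164) for Bmi1, 0.67 (SE 0.15, adjusted p = 0.0142) for Cbx7 and -0.34 (SE 0.094, adjusted p = 0.0286) for Ezh2, by the same limma fit. For Suz12, Eed, Rnf2 and Ring1 the differences lay between -0.11 and 0.15. Their 95% intervals reached from -0.52 to 0.74 at the widest, in Suz12. The median difference was 0.15 over the 9 members and 0.10 over all genes. Calls for Jarid2 and Ezh1 remained when any single library was left out. Ezh2 lost its call whichever of the Abl.2 and Abl.3 libraries was left out. Among these libraries, Bmi1 kept its call only when Abl.3 replicate 2 was left out, and Cbx7 only when Abl.3 replicate 1 was. With 1 of these libraries left out, the Bmi1 difference ran from 0.75 to 1.17. That of Cbx7 ran from 0.58 to 0.76 and that of Ezh2 from -0.40 to -0.28. With no filter on low values Ezh2 and Bmi1 lost their calls (limma, adjusted p = 0.054 and 0.0536), and with eBayes without a trend Ezh2 did (0.0562).

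Between Abl.3 and Abl.4 the set was close to the previous one, and the 2 comparisons share the libraries of Abl.3. Bmi1, Jarid2, Cbx7, Suz12 and Ezh1 were lower in Abl.3, so that Abl.4 was 2.75, 2.09, 1.80, 1.87 and 1.72 times higher on the log2(TPM + 1) scale. No member was called higher in Abl.3 and 4 did not pass, while 38.1% of all genes passed, 26.8% of genes lower in Abl.3 and 11.3% higher. Of the calls over all genes 29.8% were higher in Abl.3, and 64.0% with equal medians. The libraries did not overlap for 8 of 9 members and for 69.9% of all genes. By limma with Benjamini-Hochberg adjustment the difference was -1.46 (SE 0.23, adjusted p = 0.0039) for Bmi1, -1.06 (SE 0.098, adjusted p = 0.000491) for Jarid2 and -0.85 (SE 0.15, adjusted p = 0.00658) for Cbx7. It was -0.78 (SE 0.10, adjusted p = 0.00202) for Ezh1 and -0.91 (SE 0.26, adjusted p = 0.036) for Suz12, by the same limma fit. The median difference was -0.78 over the 9 members and -0.15 over all genes. Relative to that shift of all genes, the 5 differences were -1.31 for Bmi1, -0.91 for Jarid2, -0.70 for Cbx7, -0.63 for Ezh1 and -0.76 for Suz12.

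Ezh2 and Eed stood on the other side, 0.22 (95% interval -0.0023 to 0.45) and 0.26 (-0.028 to 0.54) higher in Abl.3, and neither passed (limma, adjusted p = 0.105 and 0.133). With the median of all genes set equal in every library both passed (limma, adjusted p = 0.00739 and 0.0135), and Suz12 did not (adjusted p = 0.0835). With the replicate number as a block Ezh2 passed (limma, adjusted p = 0.0418). Without Abl.4 replicate 2 the differences of Ezh2 and Eed were 0.33 and 0.41, and both passed. The replicate left out was the Abl.4 library nearer to Abl.3, at 199.3 and 48.7 TPM, against 171.9 and 39.1 TPM in replicate 1. Suz12 lost its call with either Abl.2 library, either Abl.4 library or Abl.3 replicate 1 left out (limma, adjusted p from 0.0637 to 0.167), and its difference fell to -0.49 without Abl.3 replicate 1. Suz12 also lost it with no filter on low values (0.0937), quantile normalisation (0.065) and eBayes without a trend (0.0554), by limma. Eed passed with quantile normalisation (limma, adjusted p = 0.0467) and Ezh2 with summed allelic counts (edgeR, adjusted p = 0.0126). Bmi1, Jarid2, Cbx7 and Ezh1 kept their calls in each of these settings.

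Between Abl.2 and Abl.4, the female clones, 0 of 9 members passed by limma with Benjamini-Hochberg adjustment, while 33.5% of all genes did. With the replicate number as a block 2 passed, Suz12 and Bmi1 (limma, adjusted p = 0.0142 and 0.0453). The 33.5% is from the fit without the block, so it is not the share to set beside these 2. Between Abl.2 and Abl.3 the block raised the number of calls over all genes. Whether these 2 members exceed the share of all genes with the block was not tested. The libraries did not overlap for 4 of 9 members and for 67.3% of all genes. At an unadjusted p under 0.05 there was 1 member, against 44.3% of all genes. It was Suz12, at -0.80 (95% interval -1.43 to -0.16, adjusted p = 0.0598 by limma). Bmi1 was at -0.50 with an interval from -1.04 to 0.041. The intervals of Ezh1, Jarid2 and Ezh2 stayed within -0.34 to 0.34, and those of all 7 other members within -0.54 to 0.43. The median was -0.10 over the members and -0.03 over all genes. With summed allelic counts and edgeR in place of TPM, 2 members passed, against 37.2% of 8702 genes, with Suz12 at -0.93 and Bmi1 at -0.36 (adjusted p = 0.00324 and 0.042). With either Abl.3 library left out, Suz12 stayed at -0.80 and passed. Bmi1 passed at -0.81 without Abl.4 replicate 1, which kept only the Abl.4 library at 60.2 TPM. The library left out was at 38.7 TPM, nearer to the 33.6 and 34.1 TPM of Abl.2.

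**Figure D2:**
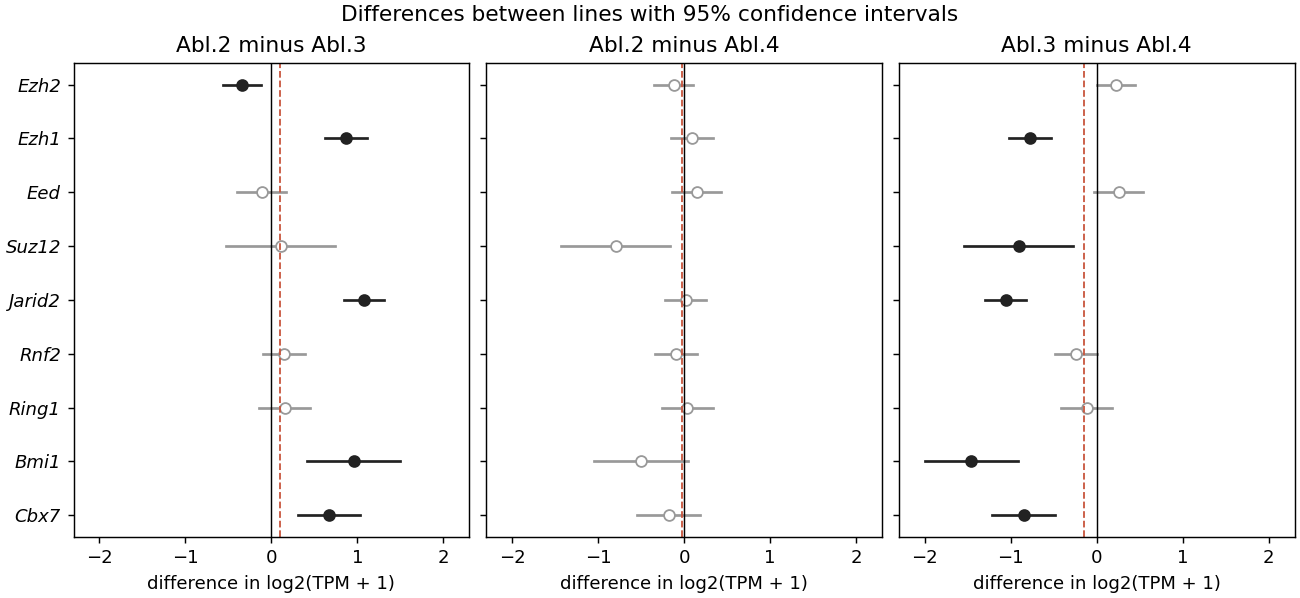
Difference in log2(TPM + 1) between lines (horizontal axis) for each member, with 95% confidence intervals; filled points passed the adjusted threshold, open points did not, and the dashed line is the median of all 11003 genes. In both panels with Abl.3, Ezh1, Jarid2, Bmi1 and Cbx7 lie on the side of lower Abl.3 abundance and Ezh2 on the opposite side, filled only against Abl.2, while all points are open between Abl.2 and Abl.4.

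Genes whose pattern over the 6 libraries lay closest to a member were read for Bmi1 and Jarid2, the members with the largest ranges of line means on the log2 scale. The measure was the root mean square distance of centred log2(TPM + 1) values, among 7727 genes averaging 10 TPM or more. For Jarid2 the nearest named genes were Sema4a (chromosome 3, distance 0.055) and Dvl3 (chromosome 16, distance 0.059), after a gene with no name in the table, ENSMUSG00000095041 (0.047). For Bmi1 they were Casp1 (chromosome 9, 0.14), Myl10 (chromosome 5, 0.15) and Zbtb20 (chromosome 16, 0.16). Sema4a was at 14.5 and 14.9 TPM in Abl.2, 6.89 and 6.06 TPM in Abl.3 and 15.4 and 15.1 TPM in Abl.4. With 3 lines, such likeness is a description of a level that was low in Abl.3.

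The second part of the data divides each member's output between the alleles. The maternal share is the maternal count over the counts of both alleles. Each library had at least 110 allelic counts for every member, the fewest in Rnf2 and the most, 9713, in Ezh2. Cbx7, Eed and Ezh2 were read more from the paternal allele in all 3 clones, and Jarid2 and Bmi1 in Abl.2 and Abl.4. All 3 clones come from the same cross, so the parent and the strain of an allele cannot be told apart. Suz12 and Rnf2 passed in no line. In edgeR's quasi-likelihood fit, with p adjusted after Benjamini and Hochberg, 5 of 9 members had an imbalance in each line, against 49.1%, 45.1% and 39.9% of 8702 genes in Abl.2, Abl.3 and Abl.4. The paternal allele was the higher one for 5 members in Abl.2, 3 in Abl.3 and 5 in Abl.4, and for 24.4%, 22.6% and 20.7% of all genes. It was higher in all 3 lines for 3 of 9 members and for 9.92% of all genes. The authors' deposited table, with replicates averaged, gives intervals that exclude 0.5 for 4 members in Abl.2 (Ezh2, Eed, Cbx7 and Bmi1) and for 3 in each of Abl.3 and Abl.4 (Ezh2, Eed and Cbx7). In the same authors' deposited table the intervals exclude 0.5 for 38.2%, 27.2% and 22.9% of all genes with an estimate in Abl.2, Abl.3 and Abl.4.

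Cbx7 was the member furthest from equal shares. Its maternal share was 0.171 and 0.177 in the Abl.2 libraries, 0.115 and 0.236 in Abl.3, and 0.149 and 0.187 in Abl.4. Every library lay far below 0.5 and the lines overlapped. The log2 ratio of maternal to paternal counts was -2.25 (SE 0.20) in Abl.2, -2.28 (SE 0.24) in Abl.3 and -2.31 (SE 0.21) in Abl.4. The adjusted p-values were 4.51e-06, 2.64e-05 and 7.52e-06 by edgeR with Benjamini-Hochberg adjustment. The 2 Abl.3 libraries differed by more than counting error, with 95% Wilson intervals of 0.0913 to 0.145 and 0.199 to 0.278. In the authors' deposited table the maternal fraction of Cbx7 is 0.17 in each line.

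Cbx7 also had many allelic counts for its abundance, at 358 counts per TPM on average, against a median of 41.0 over 8194 genes. This placed it at the 99.2 percentile. The last 100 bases of Cbx7 overlap Apobec3, an antiviral deaminase gene on the other strand, which was at 39.2 to 47.0 TPM. The maternal share of Apobec3 was 0.395 to 0.512, well above that of Cbx7. The kit does not mark strand, so reads in the overlap cannot be told apart. The part of the overlap in the Cbx7 counts was not tested.

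Among PRC2 subunits, Eed had the lowest shares, at 0.319 and 0.355 in Abl.2, 0.288 and 0.321 in Abl.3, and 0.309 and 0.418 in Abl.4. All its libraries were below 0.5, with the widest gap between the Abl.4 replicates. Its log2 allele ratio was -0.98 (SE 0.15, adjusted p = 0.000337), -1.19 (SE 0.16, adjusted p = 0.000142) and -0.81 (SE 0.16, adjusted p = 0.00224) in Abl.2, Abl.3 and Abl.4 by edgeR with Benjamini-Hochberg adjustment. Ezh2, the most deeply counted member, was at 0.416 and 0.406 in Abl.2, 0.435 and 0.442 in Abl.3, and 0.415 and 0.431 in Abl.4. Its replicates lay within 0.017 of each other. Its log2 allele ratio ran from -0.52 to -0.36 over the lines, with adjusted p-values of 3.36e-06, 0.000105 and 2.24e-05 by edgeR with Benjamini-Hochberg adjustment. The paternal excess of Ezh2 was thus small and repeated in every library.

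Jarid2 was at 0.437 and 0.440 in Abl.2, 0.491 and 0.445 in Abl.3, and 0.413 and 0.405 in Abl.4. By edgeR with Benjamini-Hochberg adjustment it passed in Abl.2 (adjusted p = 0.00919) and Abl.4 (0.00139) and not in Abl.3 (0.196), and the tests of the differences between lines did not pass. Its Abl.2 call was lost without either Abl.2 library (adjusted p = 0.0961 and 0.103 by edgeR). Bmi1 passed in Abl.2 (adjusted p = 8.99e-05) and Abl.4 (0.00917) by edgeR with Benjamini-Hochberg adjustment, and its Abl.4 call was lost without Abl.4 replicate 1 (0.169). Ezh1 had a maternal excess in Abl.3, at 0.563 and 0.575 (adjusted p = 0.0146 by edgeR with Benjamini-Hochberg adjustment), against 0.510 and 0.477 in Abl.2 and 0.508 and 0.548 in Abl.4. Ring1 also had a maternal excess in Abl.3, at 0.682 and 0.685 (adjusted p = 0.0103 by edgeR with Benjamini-Hochberg adjustment), on 192 and 149 counts, against 0.670 and 0.514 in Abl.2 and 0.575 and 0.587 in Abl.4, which did not pass. Both calls were lost without either Abl.3 library, which left 3 members called in that line (adjusted p from 0.0785 to 0.126 by edgeR). Suz12 ranged from 0.436 to 0.598 and Rnf2 from 0.368 to 0.536 over the libraries.

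**Figure D3:**
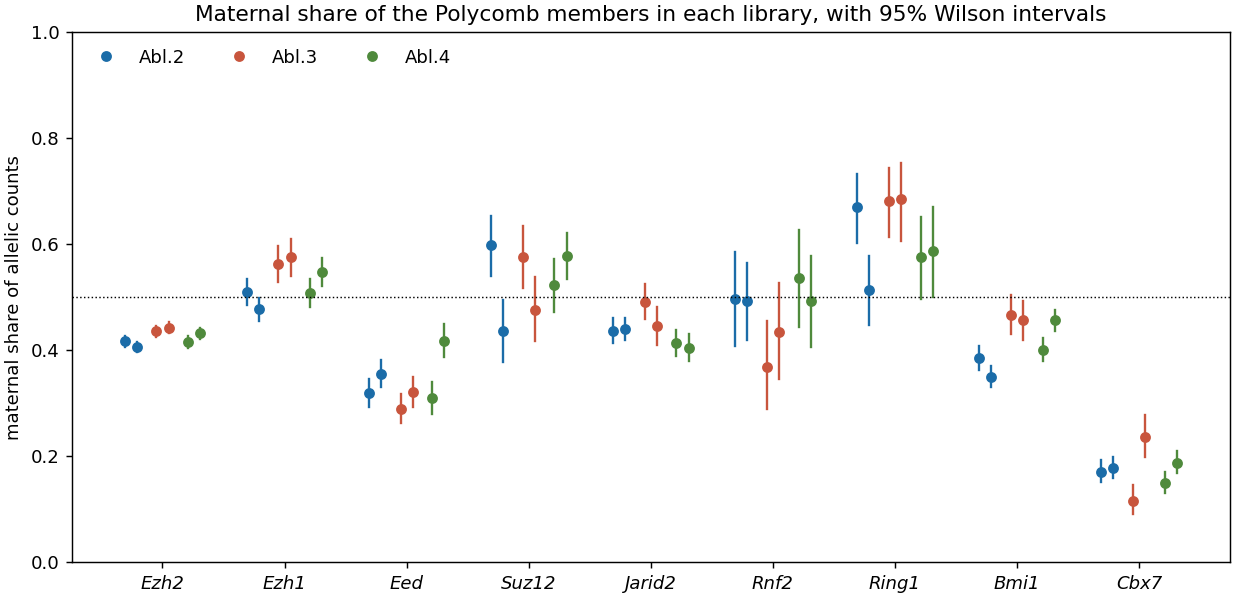
Maternal share of allelic counts (vertical axis) for each member, 1 point per library with its 95% Wilson interval, which covers counting error only. Cbx7 lies lowest, at 0.115 to 0.236, Eed and Ezh2 lie below 0.5 in every library, and the wide intervals of Rnf2, Ring1 and Suz12 go with fewer counts.

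Allelic differences between clones were tested next, which asks whether the balance of a gene differs between clones. In the edgeR test of that difference, with adjusted p as before, 1 of 9 members passed between Abl.2 and Abl.3, where 28.4% of 8702 genes did. Between Abl.2 and Abl.4 there were 0 of 9 against 22.3%, and between Abl.3 and Abl.4 0 of 9 against 16.5%. At an unadjusted p under 0.05 there were 3 members in the first pair (Bmi1, Ezh1 and Ezh2), 1 in the second (Bmi1) and 1 in the third (Jarid2), against 35.4%, 29.1% and 27.3% of all genes. By DESeq2 the counts of members were also 1, 0 and 0, against 28.7%, 22.6% and 17.1% of all genes. The median share difference over the members was -0.028, -0.020 and 0.016, and over all genes 0.0044, 0 and -0.0027. None of the members was read from a single allele in any clone.

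The member that passed was Bmi1. Its maternal share was 0.385 and 0.349 in Abl.2, 0.467 and 0.456 in Abl.3, and 0.401 and 0.456 in Abl.4. The log2 allele ratio of Abl.2 minus that of Abl.3 was -0.57 (SE 0.16; edgeR, Benjamini-Hochberg adjusted p = 0.0211). The call was lost without Abl.2 replicate 2, Abl.3 replicate 1 or Abl.3 replicate 2, where the difference was -0.45, -0.53 and -0.60. With either Abl.4 library left out, Ezh1 passed beside Bmi1, at -0.44. Without Abl.4 replicate 1, Bmi1 passed between Abl.2 and Abl.4, at -0.54, and Eed between Abl.3 and Abl.4, at -0.71.

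Set beside abundance, the allele counts show which allele carried the change in level. Values are CPM, scaled to the allelic total of the library. Bmi1 gave 31.3 and 29.8 maternal and 50.05 and 55.58 paternal CPM in Abl.2, and 16.6 and 17.2 maternal and 18.9 and 20.5 paternal in Abl.3. The mean fell in Abl.3 to 0.552 of its Abl.2 level on the maternal allele and to 0.374 on the paternal allele. Both alleles of Bmi1 were thus lower in Abl.3, the paternal allele by more. For Jarid2 the same ratios were 0.545 and 0.481, and for Ezh1 0.667 and 0.493. For Cbx7 they were 0.464 on the maternal and 0.472 on the paternal allele. Ezh2 moved the other way on both alleles, at 1.53 times on the maternal and 1.36 times on the paternal allele. Apart from Bmi1, these inequalities between the alleles did not pass the test of the allelic difference. The lower or higher abundance in Abl.3 was in each of these 5 genes shared by both alleles, in every library.

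**Figure D4:**
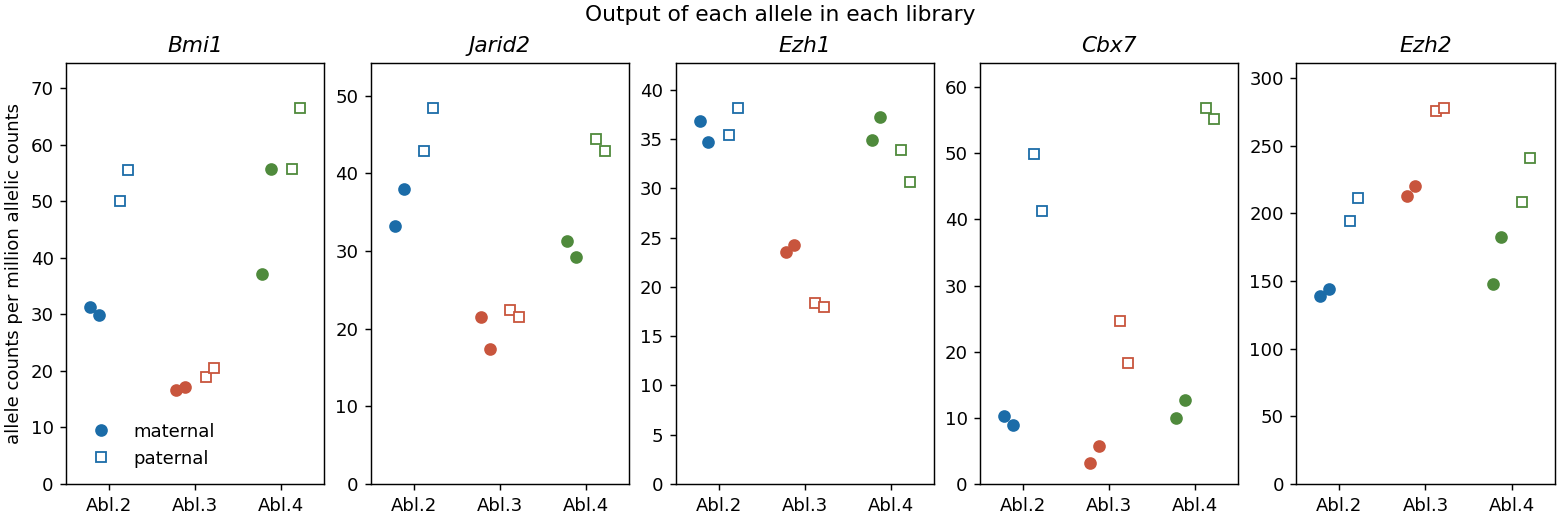
Maternal (filled circles) and paternal (open squares) CPM of allelic counts (vertical axes, each from 0) for 5 members, with 2 libraries per line. In Abl.3 both alleles are lower than in Abl.2 and Abl.4 for Bmi1, Jarid2, Ezh1 and Cbx7, and both are higher for Ezh2.

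Other genes of the Polycomb system were read from lists of 10 further PRC2 subunits, 23 further PRC1 subunits and 8 antagonists, which remove the marks or oppose the complexes. Of these 41 genes, 36 were tested, and the others were below the abundance filter or, for Ezhip, not matched in the table. By limma with Benjamini-Hochberg adjustment, 5 rose and 5 fell in Abl.2 against Abl.3, or 27.8% of them against 39.8% of all genes. In Abl.2 against Abl.4 it was 7 and 7, or 38.9% against 33.5%, and in Abl.3 against Abl.4 5 and 6, or 30.6% against 38.1%. These shares lie near those of all genes. Values below are for the genes with the largest called changes of their lists.

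Epop, an accessory subunit of PRC2, was at 29.7 and 22.3 TPM in Abl.2, 25.2 and 21.7 TPM in Abl.3, and 7.43 and 5.67 TPM in Abl.4. Its difference from Abl.4 was 1.83 (SE 0.18) in Abl.2 and 1.70 (SE 0.18) in Abl.3, with adjusted p-values of 0.000609 and 0.00091 by limma with Benjamini-Hochberg adjustment. Epop was read almost entirely from the maternal allele in Abl.4, with shares of 0.988 and 1 on 333 and 229 counts, against 0.473 in both Abl.2 libraries and 0.559 and 0.626 in Abl.3. Its paternal CPM was 0.20 and 0 in Abl.4 and 21.0 to 34.4 in the other clones. Its maternal CPM was also lower there, at 16.4 and 11.4 against 24.9 to 35.1. Phf19, which binds methylated lysine 36 of histone H3 and recruits PRC2, was at 5.04 and 3.95 TPM in Abl.2, 11.96 and 12.08 TPM in Abl.3, and 9 and 9.44 TPM in Abl.4. It was 1.25 (SE 0.14) lower in Abl.2 than in Abl.3 (adjusted p = 0.000869 by limma with Benjamini-Hochberg adjustment). Its maternal share was 0.933 and 0.946 in Abl.2 and 0.608 to 0.669 in the other clones. Lcor was 0.80 lower in Abl.3 than in Abl.4 (adjusted p = 0.0095 by limma with Benjamini-Hochberg adjustment).

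E2f6 and Mga, DNA-binding partners of a variant PRC1, also differed in both abundance and allelic balance. E2f6 was at 21.9 and 20.5 TPM in Abl.2, 27.1 and 22.9 TPM in Abl.3, and 34.7 and 39.8 TPM in Abl.4. It was 0.78 (SE 0.12) lower in Abl.2 than in Abl.4 (adjusted p = 0.00386 by limma with Benjamini-Hochberg adjustment). Abl.2 against Abl.3 did not pass for E2f6 (-0.23, adjusted p = 0.187 by limma). Its maternal share was 0.0090 and 0.0030 in Abl.2, 0.749 and 0.722 in Abl.3, and 0.474 and 0.494 in Abl.4. The paternal allele of E2f6 gave 14.6 and 12.4 CPM in Abl.2 and 10.7 and 12.8 CPM in Abl.4, while its maternal allele gave 0.13 and 0.037 CPM against 9.65 and 12.5 CPM. Mga was at 14.8 and 21.6 TPM in Abl.2, 9.33 and 8.80 TPM in Abl.3, and 19.1 and 21.6 TPM in Abl.4. It was 1.08 (SE 0.18) lower in Abl.3 than in Abl.4 (adjusted p = 0.00504 by limma with Benjamini-Hochberg adjustment). Its maternal share was 0.309 and 0.265 in Abl.3, 0.620 and 0.597 in Abl.2, and 0.515 and 0.510 in Abl.4. Cbx8, a paralog of Cbx7, was 0.87 higher in Abl.3 than in Abl.2 and 0.78 higher than in Abl.4 (adjusted p = 0.00843 and 0.0136 by limma with Benjamini-Hochberg adjustment), the opposite direction to Cbx7.

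Among antagonists, Kdm6a, an X-linked demethylase of the PRC2 mark known to escape X inactivation, was at 31.3 and 38.0 TPM in Abl.2, 12.5 and 13.4 TPM in Abl.3, and 24.3 and 27.0 TPM in Abl.4. Abl.2 exceeded the male clone Abl.3 by 1.35 (SE 0.12) (adjusted p = 0.00044 by limma with Benjamini-Hochberg adjustment) and Abl.4 exceeded Abl.3 by 0.94 (-0.94 as Abl.3 minus Abl.4, adjusted p = 0.00217 by limma). Its maternal share was 0.341 and 0.409 in Abl.2 and 0.401 and 0.390 in Abl.4, and 1 in both Abl.3 libraries. Both X alleles of Kdm6a were thus counted in the female clones. Bcor, a PRC1 gene also on X, was read from a single allele in every clone, with shares of at most 0.0031 in the female clones and at least 0.998 in Abl.3. Kdm6b rose by 0.48 in Abl.3 against Abl.2 (adjusted p = 0.0465 by limma), and Bap1, an H2A deubiquitinase, was 0.44 higher in Abl.2 than in Abl.4 (adjusted p = 0.0176 by limma).

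**Figure D5:**
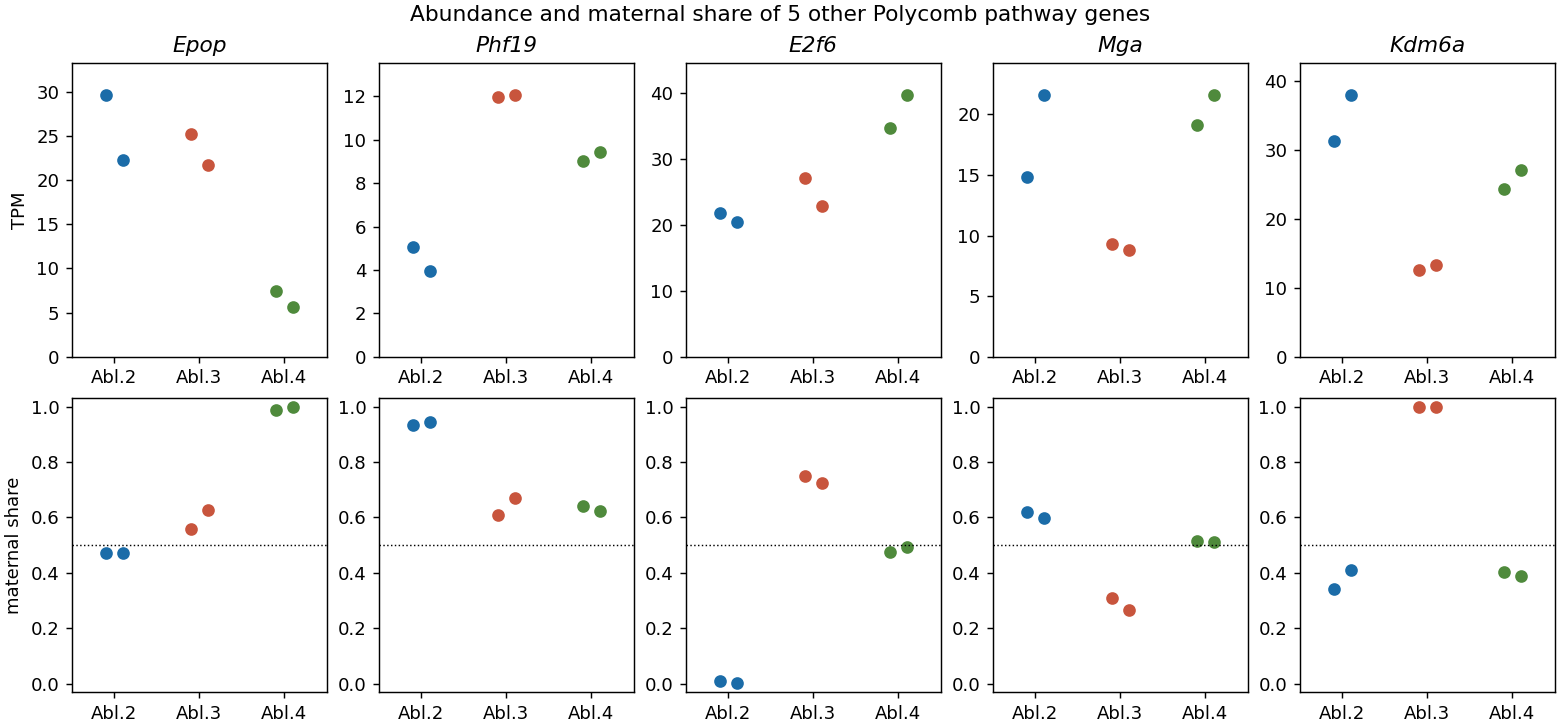
TPM (top row, axes from 0) and maternal share (bottom row, dotted line at 0.5) of 5 other Polycomb pathway genes, with 2 libraries per line. Epop is nearly all maternal and least abundant in Abl.4, E2f6 nearly all paternal and least abundant in Abl.2, and Kdm6a all maternal and least abundant in Abl.3.

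Textbook Polycomb targets were read last, from a list of 22 genes with the Hoxa cluster, lineage regulators and the Cdkn2a and Cdkn2b loci. Of these, 18 were listed at 0 in every library, including 10 of 11 Hoxa genes, and a further 2 stayed at or below 0.11 TPM. The silent state of nearly the whole list was thus common to the 3 clones. The exceptions were Cdkn2a and Cdkn2b, cell cycle inhibitors on chromosome 4. Cdkn2b was at 26.9 and 25.3 TPM in Abl.2, 31.6 and 27.1 TPM in Abl.3, and 4.34 and 5.40 TPM in Abl.4, a difference of 2.21 (SE 0.14) between Abl.2 and Abl.4 and of 2.37 (SE 0.14) between Abl.3 and Abl.4. The adjusted p-values were 7.89e-05 and 6.95e-05 by limma with Benjamini-Hochberg adjustment. Cdkn2a was at 9.34 and 8.56 TPM in Abl.2, 9.60 and 10.4 TPM in Abl.3, and 3.96 and 2.15 TPM in Abl.4. Both genes were least abundant in Abl.4. Neither passed between Abl.2 and Abl.3 (limma, adjusted p = 0.64 for Cdkn2a and 0.383 for Cdkn2b).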

How the data were processed

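RNA was measured in 6 libraries from 3 clones, grouped and numbered by their titles. The members, gene lists and tests were chosen with earlier results of these data known. The deposited abundance table holds TPM, made by the authors using DESeq2 according to its header. The deposited allele table holds whole-number counts of maternal and paternal alleles at SNPs within genes, per the file headers. The authors' imbalance table holds the maternal fraction per line with confidence limits, after replicates were averaged, per the file headers. The submitters' processing notes name STAR 2.5.4a, SAMtools, GATK and DESeq2, and the mouse build GRCm38. Starts matched GENCODE M21 for 98.7% of 35412 genes, and for all 9 members. RNA was bead-purified, treated with DNase and copied with the SMART-seq v4 kit, which has no molecular identifiers, per the labels' protocols, so Wilson intervals (95%) cover counting error only. The depth behind the TPM is unknown.

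Abundance was tested with limma 3.58.1 in R 4.3.3 (trended eBayes) on log2(TPM + 1) of 11003 genes averaging 1 TPM or more. This scale understates changes of low genes. Allelic counts were tested with edgeR 4.0.16 (quasi-likelihood, an intercept per library, an allele effect per line) for 8702 autosomal and X genes with at least 20 counts in every library; standard errors are the log2 value over the root of F. P-values were adjusted by the Benjamini-Hochberg method across all genes tested, at a threshold of 0.05. Both tests were also run on simulated data, and the outcome is not reported here. Same-numbered libraries, which per the labels share a library preparation number, deviated together across genes in each pair of lines (correlations of 0.104, 0.187 and 0.161), so the fit with the number as a block is given beside the results whose call it changes. Named genes from other lists were the largest called rise and fall per list and pair and the largest called allelic difference per list; the 5 in the plot of pathway genes, the share values of other named genes and Cdkn2a were chosen after their values were seen. One marker of the B-lineage list is not reported here. Antisense or overlapping genes touch Ezh2, Eed, Suz12, Jarid2, Rnf2 and Cbx7. Alternatives, with DESeq2 1.42.0 on the allelic counts among them, are given in the closing section.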

Additional observations from a re-analysis of the deposited data

Results flagged for a closer look

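Genes were listed here when the difference between maternal and paternal output itself differed between 2 clones by edgeR's test of the difference. Among the members this held for Bmi1, with a maternal share 0.094 lower in Abl.2 than in Abl.3 (-0.094). For the other pathway, target and marker genes below, the value is each gene's largest called difference between 2 clones. It was -0.998 for Bcor, -0.729 for E2f6, -0.625 for Kdm6a, 0.777 for Cdkn2b, 0.536 for Pax5, 0.476 for Scmh1, 0.447 for Phc2, 0.445 for Rbbp4 and 0.322 for Mga, each Abl.2 minus Abl.3. It was 0.599 for Cdkn2a, -0.521 for Epop, 0.309 for Phf19, 0.303 for Mysm1, 0.0815 for Igll1 and 0.0734 for Blnk, each Abl.2 minus Abl.4, and 0.0663 for Vpreb1, Abl.3 minus Abl.4. Cdkn2a, Scmh1, Rbbp4, Pax5, Igll1, Blnk and Vpreb1 were added after their values were seen. Bcor and Kdm6a lie on X, and Abl.3 is labelled male. Cdkn2a, Cdkn2b, Phc2, Scmh1, Rbbp4, Mysm1 and Pax5 lie on chromosome 4, where their Abl.2 shares were 0.996 to 0.999.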

How the results depend on the processing

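No called member changed direction under any alternative. Of 996 alternative values, 43 changed sign, all of them uncalled with a main size of at most 0.24. In Abl.2 against Abl.3, Suz12, Rnf2 and Ring1 changed sign with quantile normalisation, equal medians or summed allelic counts. The members with an abundance difference between Abl.2 and Abl.3 numbered 5, and 3 with no filter on low values and 1 with a change of at least 1. Calls over all genes were also fewer in both settings. With 1 library left out, Ezh2, Bmi1 and Cbx7 could lose their calls. Leaving out a library of Abl.2 or Abl.3 also lowered the calls over all genes, so such losses were not particular to the members. Between Abl.2 and Abl.4 there were 0, and 1 with a mean of at least 5 TPM and 2 with summed allelic counts. Of all genes, 33.5% passed in the main fit and 37.2% of 8702 with summed allelic counts. With 1 library left out, Suz12 or Bmi1 could gain a call. With the replicate number as a block this pair gave 2 (Suz12, adjusted p = 0.0142 by limma, and Bmi1, 0.0453), and Ezh2 passed between Abl.3 and Abl.4 (0.0418); the block changed no other call. Between Abl.3 and Abl.4 there were 5, and 2 with a change of at least 1 (Bmi1 at -1.46 and Jarid2 at -1.06). With 1 library left out, Suz12 could lose its call, and Ezh2 and Eed could gain one. Over all genes, 65.0% of calls were higher in Abl.2 than in Abl.3, against 51.4%, 40.2% and 52.4% with quantile normalisation, equal medians and summed allelic counts. For Abl.3 against Abl.4 the share of calls higher in Abl.3 was 29.8%, and 52.0%, 64.0% and 46.7% with the same settings.

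Allelic imbalance of 5 members per line became 1 in each line with a distance from 0.5 of at least 0.2 (Cbx7). With 1 library left out, Jarid2 could lose its call in Abl.2, Ezh1 and Ring1 in Abl.3, and Bmi1 in Abl.4. The allelic difference between Abl.2 and Abl.3 of 1 member became 3 with the library size set per allele and 0 when shares had to differ by 0.2. Bmi1 shares differed by -0.094. Calls over all genes went from 2475 to 2592 with the library size per allele. With 1 library left out, Bmi1 could lose its call and Ezh1 could gain one. Between Abl.2 and Abl.4, 0 became 2 with the library size per allele, where calls over all genes went from 1942 to 2277. Without Abl.4 replicate 1, Bmi1 passed there, at a log2 difference of -0.54. Between Abl.3 and Abl.4 there were 0, and Eed passed without Abl.4 replicate 1, at a log2 difference of -0.71. A line left with a single library is assumed to vary like the others. Of the imbalance calls over all genes in Abl.2, 50.3% had the maternal allele higher, and 38.0% with the library size per allele. Of the difference calls, those more maternal in Abl.2 went from 54.3% to 43.9% against Abl.3. Against Abl.4 they went from 57.0% to 43.0%. The low counts of Rnf2, Ring1 and Suz12 limit their shares.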

Other observations

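Several pathway genes lie on chromosome 4, and they differed from the members in the allele tables. Rbbp4, a histone-binding PRC2 subunit, Phc2 and Scmh1, both PRC1 subunits, and Mysm1, an H2A deubiquitinase, had maternal shares of 0.998 to 0.999 in Abl.2. In Abl.3 and Abl.4 their shares were 0.523 to 0.707. The abundance of Phc2 was highest in Abl.2, at 208.5 and 189.8 TPM against 127.5 to 153.2 TPM in the other clones. Its maternal allele gave 210.6 and 191.4 CPM in Abl.2, against 94.4 and 90.5 in Abl.3 and 81.3 and 71.5 in Abl.4. Mysm1 went the other way against Abl.4, at 11.7 and 13.0 TPM in Abl.2 and 16.5 and 16.7 TPM in Abl.4 (-0.41, adjusted p = 0.0292 by limma). Its Abl.3 libraries, at 13.7 and 12.8 TPM, overlapped those of Abl.2, and this pair did not pass (-0.099, adjusted p = 0.504 by limma). Scmh1 was at 78.0 to 88.9 TPM in Abl.2 and 59.3 to 78.0 TPM in the other clones. Rbbp4 ranged from 225.8 to 268.2 TPM over all libraries. None of the 9 members lies on chromosome 4.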
